A study of Homo sapiens with 14 samples.

Results

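BCL2, APAF1, BIRC2, XIAP, CDK1 and CDKN1B are 6 apoptosis and cell cycle mRNAs that earlier work described as having an internal ribosome entry site (IRES) or as targets of DAP5, the eIF4G relative encoded by EIF4G2. They were chosen by name from those reports, and no measured value was used to choose them, although earlier results of these data were known. All 6 were found among the 58434 gene symbols counted. RNA sequencing covered 14 libraries of MDA-MB-231, an established breast cancer cell line. MB-231-shDAP5 cells carried a doxycycline-inducible short hairpin RNA against DAP5, and MB-231-shNSi cells carried a non-silencing one. Both lines received doxycycline at 1 µg/ml for 6 days before polysomes were separated on sucrose gradients, so no library comes from cells without the drug or without a hairpin. The hairpins sat in the pTRIPZ lentiviral vector, which also drives a red fluorescent reporter, and each stable line was selected with puromycin and sorted on that reporter. Each DAP5 result therefore rests on 1 hairpin in 1 sorted population.

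For each line, 2 cultures gave a total mRNA library, a light (poorly translated) polysome library and a heavy (well-translated) polysome library, and the 2 shNSi cultures also gave a moderate polysome library. Cultures are numbered as labelled, and their independence is as labelled. Every p-value below rests on the spread between these cultures as pooled over genes, and not on a gene's own spread alone. The shDAP5 light libraries carry a code whose letters mark the moderate pool in shNSi, and the shDAP5 total libraries are titled as total polysome. The title was followed for the light libraries, while the total ones were taken as total mRNA by their code. Whether they hold total mRNA or all polysomes cannot be told apart here, and every shDAP5 translation efficiency is relative to them. Library totals ranged from 25899838 to 30795910 counts. Each of the 6 mRNAs had at least 173 counts in every library, the lowest being APAF1, and at most 17595, the highest being CDK1. Levels are given in CPM, the customary unit of a gene's counts relative to the total of its library, scaled by the trimmed mean of M values (TMM). They are compared within a gene and not between genes.

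The libraries did not all stand closest to their own group. Across 16235 genes, replicate libraries correlated with Pearson's r between 0.967 in shNSi moderate polysomes and 0.989 in shDAP5 light polysomes. The shNSi light library of culture 1 was closest to the shDAP5 light library of culture 2 (r = 0.982), and that of shNSi culture 2 to its own total mRNA (r = 0.978). The shDAP5 heavy library of culture 1 was also closest to its own total mRNA (r = 0.984). So were both shNSi moderate libraries, culture 1 with r = 0.9749 and culture 2 with r = 0.981, while shNSi total mRNA of culture 1 was closest to that of shDAP5 culture 2 (r = 0.985). Both shDAP5 heavy libraries correlated more with each shNSi moderate library than with either shNSi heavy one. For shDAP5 culture 1, r was 0.9685 and 0.9705 with moderate against 0.9678 and 0.9564 with heavy polysomes. For shDAP5 culture 2 it was 0.9727 and 0.9802 against 0.9574 and 0.9479. Whether the heavy pools of both lines cover the same part of the gradient was not tested. Libraries differed in how level followed coding length across 12737 genes, each gene taken relative to its mean in the 4 total mRNA libraries. The Spearman coefficient was 0.51 and 0.63 in shNSi heavy polysomes but 0.12 and -0.30 in shDAP5 heavy polysomes, and it was -0.46 and -0.60 in shNSi light against -0.42 and -0.41 in shDAP5 light polysomes. Long coding sequences were thus relatively enriched in the shNSi heavy libraries and not in that of shDAP5 culture 2. Genes are not independent replicates, and the part of this gradient in the results below was not tested beyond the values given with it.

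The labelled cell line was checked against its markers. In total mRNA the mesenchymal genes were present in both lines, VIM at 5260 and 5376 CPM in shNSi and 4078 and 4145 in shDAP5, CD44 at 503 and 641 against 193 and 316, and AXL at 899 and 951 against 420.3 and 672. All 3 were lower in both shDAP5 libraries, in a comparison where 0.354% of genes were called, and edgeR called none of them (VIM -0.34, adjusted p = 0.370; CD44 -1.14, adjusted p = 0.0584; AXL -0.73, adjusted p = 0.144). All 3 had an unadjusted p under 0.05, DESeq2 called CD44 (adjusted p = 0.00113) and limma called none. Whether this comes from DAP5 or from the separate sorting of the lines was not tested. The hormone receptor genes ESR1 (0.24 to 0.40 CPM) and PGR (0 counts in all 14 libraries) were near or at 0, as were the epithelial cadherin CDH1 (0.069 to 0.25 CPM) and the leukocyte gene PTPRC (at most 0.11 CPM), while the epithelial gene EPCAM stood at 3.82 to 5.09 CPM. The endothelial marker PECAM1 was not among the symbols counted.

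EIF4G2, the target of the hairpin, was lower in every shDAP5 library than in every shNSi library. In shNSi its level was 1442 and 1396 CPM in total mRNA, 1527 and 1562 in light, 2516 and 1823 in moderate and 1385 and 1323 in heavy polysomes. In shDAP5 it was 541 and 749 CPM in total mRNA, 546 and 662 in light and 708 and 719 in heavy polysomes. The silenced and control libraries did not overlap in total mRNA, light or heavy polysomes, where 0.354%, 0% and 30.9% of all genes passed the test. EIF4G2 fell in total mRNA (log2 change -1.11, SE 0.18, adjusted p = 0.0172, edgeR's quasi-likelihood test, Benjamini-Hochberg), to 0.464 of the control level, and both silenced cultures were lower. This call was made in 9 of 13 alternatives, over which the adjusted p ranged from 4.74e-07 to 0.680. It was lost without shDAP5 culture 1 (log2 change -0.90, adjusted p = 0.680), with library size scaling (-1.07, adjusted p = 0.0501), with limma (-1.08, adjusted p = 0.143) and with all 14 libraries in 1 fit (-1.13, adjusted p = 0.443). The edgeR test did not pass in heavy polysomes, at -0.86 with an adjusted p of 0.0691, nor in light ones, at -1.33 with an adjusted p of 0.430. DESeq2 called EIF4G2 lower in both, by -0.93 in heavy (adjusted p = 0.00821, range over 15 alternatives 0.00821 to 0.628, 2 of them calls) and by -1.34 in light polysomes (adjusted p = 0.00374, range over 15 alternatives 4.91e-06 to 1, 6 of them calls). In light polysomes it passed without shNSi culture 1 (-1.35, adjusted p = 4.91e-06) and without shNSi culture 2 (-1.33, adjusted p = 1.99e-05). Its heavy translation efficiency, the ratio of heavy polysome to total mRNA, had a log2 change of 0.26 (adjusted p = 0.688). Bulk libraries cannot tell fewer cells with an mRNA from less of that mRNA in each cell.

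Most mRNAs recruit the ribosome at the cap through eIF4E, eIF4G1 and eIF4A, after which the small subunit scans to a start codon. DAP5 shares the part of eIF4G1 that binds eIF4A and eIF3 but lacks the part that binds eIF4E, and it has been linked to initiation without eIF4E, including at IRES elements, in mitosis and in apoptosis. Long leaders with upstream start codons are poor substrates for plain scanning, which is why the leaders of IRES mRNAs draw attention.

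The start codons of the 6 mRNAs are shown because both a scanning and an internally recruited ribosome must begin there, and the base context around them bears on how well scanning stops. Each line gives 12 bases before the start codon, the start codon in capitals, and 9 bases after it, read 5′ to 3′ on the strand of the gene from the principal, best supported GENCODE v29 transcript (GRCh38).
BCL2: cctctgggaaggATGgcgcacgct
APAF1: atctgagggaagATGgatgcaaaa
BIRC2: tgtcacctactcATGcacaaaact
XIAP: tttcaagagaagATGacttttaac
CDK1: cattgactaactATGgaagattat
CDKN1B: cccgggagaaagATGtcaaacgtg

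BCL2, APAF1 and CDK1 held the context ANNATGG, which 21.6% of 18612 transcripts held, read on the coding strand only. None of the 6 held GNNATGG, which 21.1% of transcripts held, and BIRC2, XIAP and CDKN1B held neither, like 57.3% of transcripts. Of these, XIAP and CDKN1B held the A of ANNATGG but not its last G, and BIRC2 held neither base. In GRCh38 BCL2 lies at chr18:63123346-63320128 on the minus strand. The other members are on plus strands, APAF1 at chr12:98645141-98735433, BIRC2 at chr11:102347211-102378670 and XIAP at chrX:123859724-123913979. CDK1 lies at chr10:60778331-60794852 and CDKN1B at chr12:12715058-12722371. The counts themselves were made on hg19 and were joined to this annotation by symbol.

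The annotated leaders are long for 4 of the 6 mRNAs. The 5′ UTR of the chosen transcript measured 1462 nt in BCL2, 736 in APAF1, 1729 in BIRC2, 299 in XIAP, 142 in CDK1 and 716 in CDKN1B, against a median of 182 nt over 18661 genes. BIRC2 and BCL2 stood at percentiles 99.6 and 99.4 of leader length, APAF1 at 95.6 and CDKN1B at 95.4, while CDK1 stood at 40.3. Upstream ATG triplets numbered 28 in BIRC2, 11 in BCL2, 3 in APAF1, 1 each in XIAP and CDKN1B and 0 in CDK1. At least 1 such triplet occurs in the leaders of 52.5% of genes. Other coding transcripts of the same genes have shorter leaders, down to 146 nt in BCL2, 0 in APAF1, 164 in BIRC2, 126 in XIAP, 13 in CDK1 and 18 in CDKN1B, and which leaders these cells use was not analysed here. APAF1 overlaps ANKS1B on the opposite strand. XIAP overlaps XIAP-AS1, which had 0 counts, and the XIAP pseudogenes had at most 1 count in any library.

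On DAP5 silencing 1 of the 6 mRNAs, APAF1, changed in heavy polysomes, and the others did not pass in any fraction. The median log2 change of the 6 was -0.07 in total mRNA, -0.18 in heavy and -0.04 in light polysomes, beside 0.01, 0.09 and -0.0066 over all genes tested. A gene is called when its adjusted p is under 0.05, from the quasi-likelihood test of edgeR adjusted by Benjamini-Hochberg across every gene that entered the fit. In total mRNA 0 of the 6 were called, against 0.354% of 14992 genes. At an unadjusted p under 0.05 there were 0 of the 6 and 1799 genes, and DESeq2 and limma also called 0 of the 6. In heavy polysomes 1 of the 6 was called, against 30.9% of 14270 genes (2024 higher and 2390 lower), so a call there was common among genes at large. At an unadjusted p under 0.05 there were 1 of the 6 and 5996 genes, and DESeq2 and limma also each called 1 of the 6. In light polysomes 0 of the 6 and 0% of 15529 genes were called by edgeR, with 0 of the 6 and 1330 genes at an unadjusted p under 0.05. DESeq2 called 0 of the 6 and 105 genes there, and limma called 0 of both. The code of the shDAP5 light libraries would match them to the shNSi moderate pool instead, and against that pool edgeR called 3940 of 15431 genes and 1 of the 6, CDK1. Across genes the shDAP5 light libraries correlated more with the shNSi light libraries than with the moderate ones. Pearson's r was 0.9786 and 0.9644 against 0.9465 and 0.9132 for shDAP5 culture 1. For shDAP5 culture 2 it was 0.9818 and 0.9682 against 0.9518 and 0.9182. Which pool these libraries hold was not tested.

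Translation efficiency gave no member call. Heavy translation efficiency, the change of heavy polysomes relative to total mRNA within each culture, was called by edgeR for 0 of the 6 mRNAs against 13.1% of 15374 genes. At an unadjusted p under 0.05 there were 1 of the 6 and 4564 genes. DESeq2 called 0 of the 6 and 2127 genes, and limma called 0 of the 6 and 408 genes. The median log2 change of the 6 was -0.02, beside 0.09 over all genes tested. Light translation efficiency was called for 0 of the 6 and 0% of 15967 genes (edgeR), with 0 of the 6 and 833 genes at an unadjusted p under 0.05 and 0 calls by DESeq2 or limma. With the shNSi moderate pool in place of light it was called for CDK1 and 4367 of 15859 genes. The heavy over light ratio, which asks whether an mRNA shifted along the gradient without using total mRNA, was called for 0 of the 6 against 6.75% of 15878 genes. At an unadjusted p under 0.05 there were 1 of the 6 and 3985 genes. DESeq2 called 1 of the 6 and 1965 genes, and limma called 0 of both. Scaling by library size without TMM moved the median log2 change of all genes by 0.24 in heavy polysomes, 0.21 in heavy translation efficiency and 0.24 in the heavy over light ratio, and changes below are relative to the TMM scale. The comparisons share the same polysome and total libraries.

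**Figure D1:**
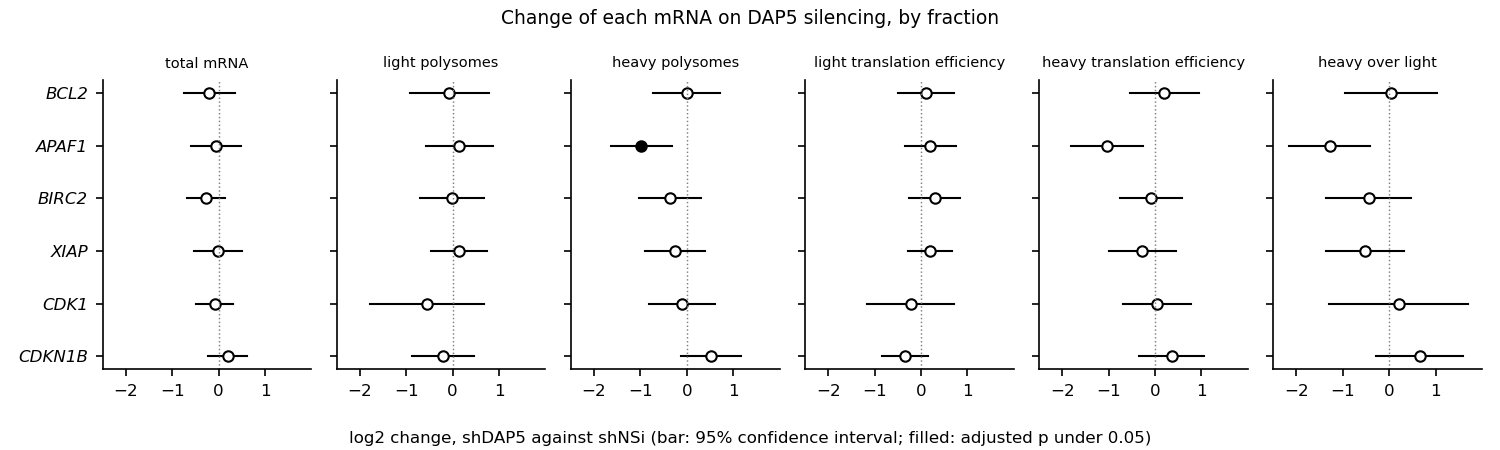
Log2 change of each mRNA, shDAP5 against shNSi (horizontal axis), in 6 comparisons (panels), with points for the edgeR estimate, bars for its 95% confidence interval and a filled point where the adjusted p is under 0.05. The filled point is APAF1 in heavy polysomes at -0.98, and its open points in heavy translation efficiency (-1.03) and heavy over light (-1.29) have intervals below 0 without passing after adjustment.

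BCL2 encodes the founding member of its family, an inhibitor of apoptosis at the mitochondrial outer membrane. Its level ran from 6.64 CPM in the shDAP5 light library of culture 1 to 16.6 CPM in the shNSi moderate library of culture 1. In shNSi it was 11.2 ± 1.07 CPM in total mRNA, 10.6 ± 2.06 in light, 13.2 ± 4.75 in moderate and 10.5 ± 2.32 in heavy polysomes (mean ± SD, n = 2). In shDAP5 it was 9.59 ± 2.49 in total mRNA, 9.96 ± 4.69 in light and 9.99 ± 1.97 in heavy polysomes. Moderate shNSi polysomes ranked first and shDAP5 total mRNA last, and every neighbouring pair of groups in that order overlapped. The log2 ratio of heavy polysomes to total mRNA was 0.02 and -0.24 in the shNSi cultures and 0.54 and -0.40 in the shDAP5 cultures. Both shNSi cultures lay between the shDAP5 ones. The log2 change of heavy translation efficiency was 0.20 (SE 0.37, 95% confidence interval -0.53 to 0.94, adjusted p = 0.751, edgeR), so neither a modest gain nor a modest loss is outside the interval. In total mRNA it was -0.20, in heavy polysomes -0.0059 and in light polysomes -0.07, none of which passed. The heavy over light change was 0.04 (adjusted p = 0.968) and did not pass either.

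APAF1 encodes the scaffold of the apoptosome, which binds cytochrome c and activates the initiator caspase of the mitochondrial pathway. Its level in shNSi was 39.1 and 37.4 CPM in heavy polysomes, 14.5 and 10.4 in moderate, 6.96 and 5.98 in light polysomes and 21.7 and 14.2 in total mRNA. In shDAP5 it was 24.0 and 12.9 CPM in heavy polysomes, 6.88 and 7.17 in light polysomes and 14.7 and 19.3 in total mRNA. Both shNSi heavy libraries lay above every other library, and the shDAP5 heavy libraries lay below them, 1 above and 1 below all 4 total mRNA libraries and both above all light ones. By group, shNSi heavy polysomes (38.2 ± 1.23, mean ± SD, n = 2) were followed after a gap by shDAP5 heavy (18.4 ± 7.88), shNSi total (17.9 ± 5.37) and shDAP5 total mRNA (17.0 ± 3.25), which overlapped one another. Next in order, shNSi moderate polysomes (12.5 ± 2.93) lay below both shDAP5 total libraries but overlapped shNSi total mRNA and shDAP5 heavy polysomes. After a further gap came shDAP5 light (7.03 ± 0.20) and shNSi light polysomes (6.47 ± 0.70), which overlapped. Across libraries APAF1 spanned 6.54-fold from lowest to highest.

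APAF1 fell in heavy polysomes on DAP5 silencing, by a log2 change of -0.98 (SE 0.34, 95% confidence interval -1.64 to -0.32, adjusted p = 0.0177, edgeR's quasi-likelihood test, Benjamini-Hochberg), or to 0.507 of the shNSi level, and both shDAP5 cultures were below both shNSi cultures. It stood at percentile 14.6 of all genes in that comparison, in which 30.9% were called. Total mRNA did not pass, at log2 -0.05 with an adjusted p of 0.969, and light polysomes gave 0.14 with an adjusted p of 0.911, with overlapping groups in both. The heavy polysome call was lost without shNSi culture 2 (-1.07, adjusted p = 0.0509) and without shDAP5 culture 2 (-0.61, adjusted p = 0.318). It was also lost with library size scaling (-0.71), with offsets for coding length (-0.25, or -0.26 with the replicate block as well) and with the shNSi heavy and moderate pools summed (-0.33), and the direction turned with the moderate pool in place of the heavy one (0.60). Over its 15 alternatives the adjusted p ranged from 0.00524 to 0.960 and the call was made in 8.

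Relative to total mRNA of the same culture, the log2 ratio of APAF1 in heavy polysomes was 0.85 and 1.40 in shNSi and 0.71 and -0.58 in shDAP5. Both silenced cultures lay below both control cultures, the first by little and the second by far, in a comparison where 13.1% of genes were called. On the library size scale the lines overlapped, at 0.52 and 0.98 in shNSi and 0.67 and -0.82 in shDAP5. The log2 change of heavy translation efficiency was -1.03 (SE 0.38, 95% confidence interval -1.80 to -0.26, unadjusted p = 0.0105 and adjusted p = 0.0657 in edgeR's quasi-likelihood test), which did not pass. It passed without shDAP5 culture 1 (-1.68), with no filter on low counts (adjusted p = 0.0440) and with at least 10 counts in every library (adjusted p = 0.0415). Without shDAP5 culture 2 the change was -0.39. Its adjusted p ranged from 0.00029 to 1 over 15 alternatives. The heavy over light log2 ratio was 2.49 and 2.64 in shNSi and 1.80 and 0.84 in shDAP5, without overlap on either scale, where 6.75% of genes were called. Its log2 change of -1.29 (SE 0.42, adjusted p = 0.0656, edgeR) missed the threshold. It passed with DESeq2 (-1.33, adjusted p = 0.0343), with no filter (-1.33, adjusted p = 0.0433), without shNSi culture 1 (-1.35) and without shDAP5 culture 1 (-1.82). The adjusted p ranged from 0.0343 to 0.999 over 17 alternatives, 4 of them calls. Without shDAP5 culture 2 the change was -0.79, and with the shNSi moderate pool in place of heavy it turned to 0.39. The light over total log2 ratio overlapped, at -1.64 and -1.24 in shNSi and -1.09 and -1.42 in shDAP5.

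**Figure D2:**
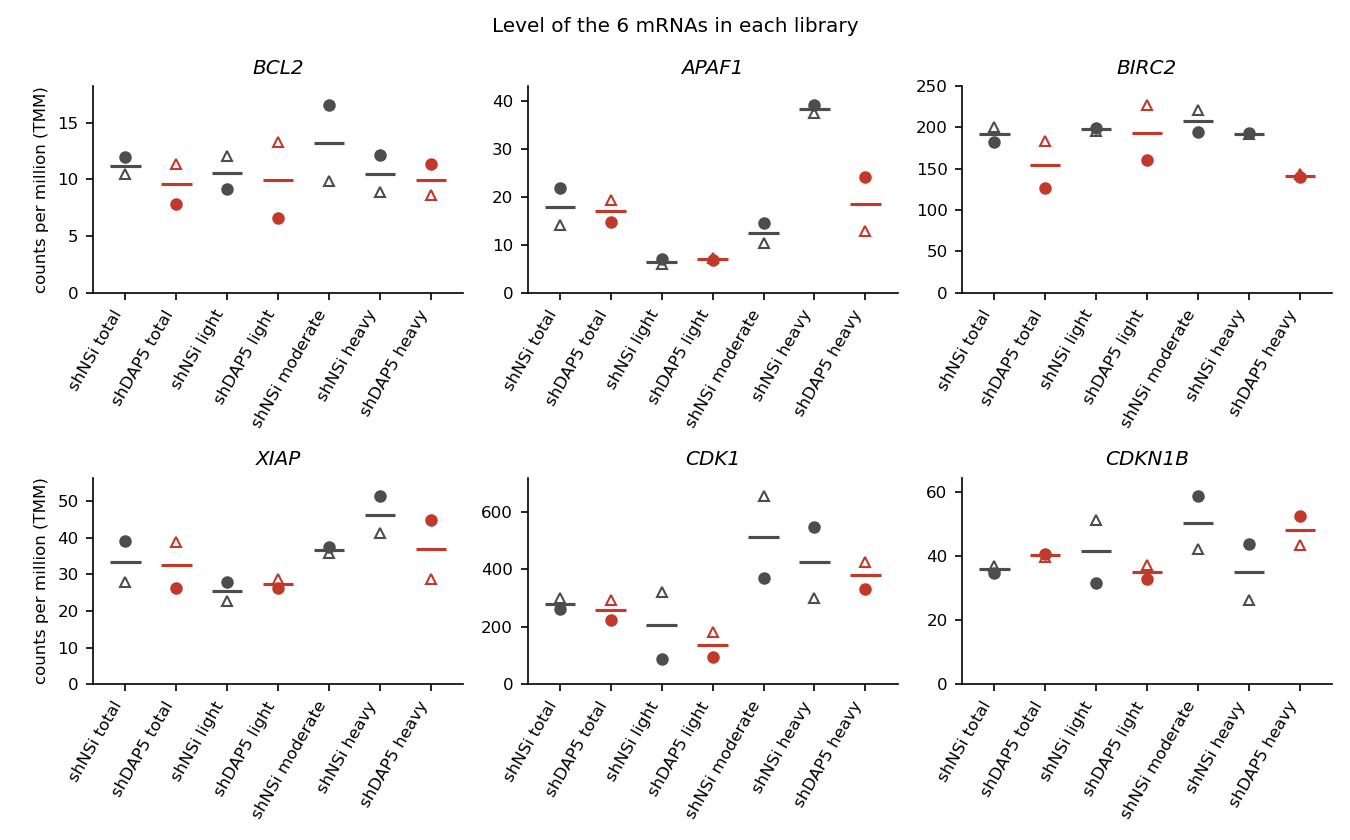
Level of the 6 mRNAs (panels) in TMM-scaled CPM (vertical axis, from 0) in each library, with filled circles for culture 1, open triangles for culture 2, bars for the mean of the 2 cultures, grey for shNSi and red for shDAP5. APAF1 in shNSi heavy polysomes (39.1 and 37.4 CPM) stands above its other 12 libraries, while the groups of BCL2 all overlap their neighbours in level.

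BIRC2 and XIAP encode inhibitor of apoptosis proteins, BIRC2 a ubiquitin ligase of the TNF receptor complex and XIAP a direct inhibitor of caspases. BIRC2 was the steadiest of the 6 across libraries on the TMM scale but not by library size, from 127 to 227 CPM with TMM, a 1.79-fold span. Its level in shNSi was 192 ± 12.8 CPM in total mRNA, 198 ± 2.39 in light, 208 ± 18.2 in moderate and 192 ± 1.08 in heavy polysomes (mean ± SD, n = 2). In shDAP5 it was 155 ± 39.4, 194 ± 47.5 and 142 ± 2.999 in total, light and heavy libraries. Every neighbouring pair in the order from shNSi moderate down to shDAP5 heavy polysomes overlapped, although the shDAP5 heavy libraries (139.7 and 144 CPM) lay below both shNSi heavy libraries (193 and 192 CPM). Without TMM these overlapped. In that comparison 30.9% of genes were called, and the BIRC2 change of -0.37 (adjusted p = 0.418, edgeR) was not. The BIRC2 log2 ratio of light polysomes to total mRNA was 0.13 and -0.03 in shNSi and 0.33 and 0.31 in shDAP5. The heavy over light ratio was -0.05 and -0.03 in shNSi and -0.20 and -0.66 in shDAP5. The lines did not overlap in either ratio, where 0% and 6.75% of genes were called, but on the library size scale those of heavy over light did (-0.55 and -0.51 in shNSi, -0.39 and -1.06 in shDAP5). Neither change passed (0.29, adjusted p = 0.896, and -0.44, adjusted p = 0.584, edgeR). The heavy translation efficiency change of BIRC2 was -0.09 (SE 0.34, 95% confidence interval -0.76 to 0.59).

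On the TMM scale XIAP was highest in heavy polysomes in both shNSi cultures, while by library size culture 2 had more in moderate (31.5 CPM) than in heavy polysomes (30.5 CPM). In shNSi it stood at 51.4 and 41.2 CPM in heavy, 37.4 and 36.0 in moderate, 28.0 and 22.8 in light polysomes and 39.2 and 27.9 in total mRNA. In shDAP5 it stood at 44.96 and 28.9 CPM in heavy, 26.2 and 28.8 in light polysomes and 26.2 and 38.8 in total mRNA. Groups next to each other in level all overlapped, from shNSi heavy (46.3 ± 7.15 CPM) through shDAP5 heavy (36.9 ± 11.4), shNSi moderate (36.7 ± 1.03), shNSi total (33.5 ± 8.03), shDAP5 total (32.5 ± 8.93) and shDAP5 light (27.5 ± 1.79) to shNSi light (25.4 ± 3.71). The log2 ratio of heavy polysomes to total mRNA was 0.39 and 0.57 in shNSi against 0.78 and -0.43 in shDAP5, so the silenced cultures fell on either side of the control ones. The heavy translation efficiency change was -0.27 (SE 0.36, 95% confidence interval -1.001 to 0.46, adjusted p = 0.653, edgeR). Without shDAP5 culture 1 it was -0.88 and passed, the only call in 15 alternatives, while without shDAP5 culture 2 it turned to 0.32. Heavy over light, the shNSi cultures gave 0.87 and 0.86 and the shDAP5 cultures 0.78 and 0.0072. These do not overlap, in a comparison where 6.75% of genes were called, but on the library size scale they do (0.37 and 0.38, 0.59 and -0.39). That change of -0.52 (adjusted p = 0.456) did not pass.

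CDK1 encodes the kinase that drives entry into mitosis. Its level in shNSi was 260.2 and 299.9 CPM in total mRNA, 88.4 and 322 in light, 368 and 653 in moderate and 548 and 299.6 in heavy polysomes. In shDAP5 it was 225 and 292 CPM in total mRNA, 94.8 and 181 in light and 331 and 425 in heavy polysomes. The shNSi cultures differed in every polysome pool, culture 1 having little CDK1 in light and much in heavy polysomes and culture 2 similar amounts in both. Across libraries CDK1 spanned 7.38-fold. Among group means, shNSi moderate (510.4 ± 201 CPM), shNSi heavy (424 ± 176) and shDAP5 heavy polysomes (378 ± 66.4) overlapped. Next in order, shNSi total (280.1 ± 28.1) lay below both shDAP5 heavy libraries and overlapped the lower shNSi heavy one, and it was followed by shDAP5 total (258 ± 47.8), shNSi light (205 ± 165) and shDAP5 light libraries (138 ± 61.0), each overlapping the next. The heavy over light log2 ratio was 2.63 and -0.10 in shNSi and 1.80 and 1.23 in shDAP5. Both silenced cultures lay between the control ones. The heavy translation efficiency change of 0.04 (SE 0.36, 95% confidence interval -0.69 to 0.77, adjusted p = 0.956, edgeR) and the heavy over light change of 0.21 (SE 0.70, adjusted p = 0.893) did not pass. Without shNSi culture 1 the heavy over light change was 1.59 and passed (adjusted p = 0.00889, range over 17 alternatives 0.00692 to 1). Without that culture CDK1 also passed in light polysomes (-1.20, adjusted p = 1.29e-05, range 1.29e-05 to 1) and light translation efficiency (-1.02, adjusted p = 0.000232, range 0.000232 to 1). Without shNSi culture 2 these changes turned, to -1.15 in heavy over light, 0.65 in light polysomes and 0.56 in light translation efficiency, none of which passed. Without shDAP5 culture 1 heavy over light was -0.13 and light translation efficiency 0.03.

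With the shNSi moderate pool in place of light, CDK1 passed in light polysomes (-1.80, adjusted p = 0.0246), light translation efficiency (-1.68, adjusted p = 0.00488) and the heavy over light ratio (1.69, adjusted p = 0.00692), within the ranges given above. The shDAP5 light libraries correlated more with the shNSi light than with the shNSi moderate libraries, by the values given earlier.

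CDKN1B encodes the cyclin-dependent kinase inhibitor that holds cells before DNA replication. Its level in shNSi was 35.9 ± 1.49 CPM in total mRNA, 41.5 ± 13.8 in light, 50.4 ± 11.7 in moderate and 34.96 ± 12.4 in heavy polysomes (mean ± SD, n = 2). In shDAP5 it was 40.3 ± 0.78 in total mRNA, 35.2 ± 3.07 in light and 48.1 ± 6.44 in heavy polysomes. From shNSi moderate through shDAP5 heavy and shNSi light to shDAP5 total the neighbours overlapped. A gap lay between shDAP5 total (39.7 and 40.8 CPM) and shNSi total mRNA (34.8 and 36.9 CPM), and the latter, shDAP5 light and shNSi heavy polysomes each overlapped the next. In that total mRNA comparison 0.354% of genes were called, and the CDKN1B change of 0.20 (adjusted p = 0.777, edgeR) was not among them. The log2 ratio of heavy polysomes to total mRNA was 0.33 and -0.49 in shNSi and 0.37 and 0.13 in shDAP5, and the change of 0.36 (SE 0.35, 95% confidence interval -0.34 to 1.05, adjusted p = 0.519) did not pass. The heavy over light ratio was 0.46 and -0.97 in shNSi and 0.67 and 0.22 in shDAP5, with a change of 0.65 (SE 0.45, adjusted p = 0.393). Without shNSi culture 1 CDKN1B passed in the heavy over light ratio (1.38, adjusted p = 0.0264, range over 17 alternatives 0.0264 to 0.999) and in light translation efficiency (-0.62, adjusted p = 0.0299, range over 15 alternatives 0.0299 to 1). Without shNSi culture 2 these were -0.053 and -0.097.

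**Figure D3:**
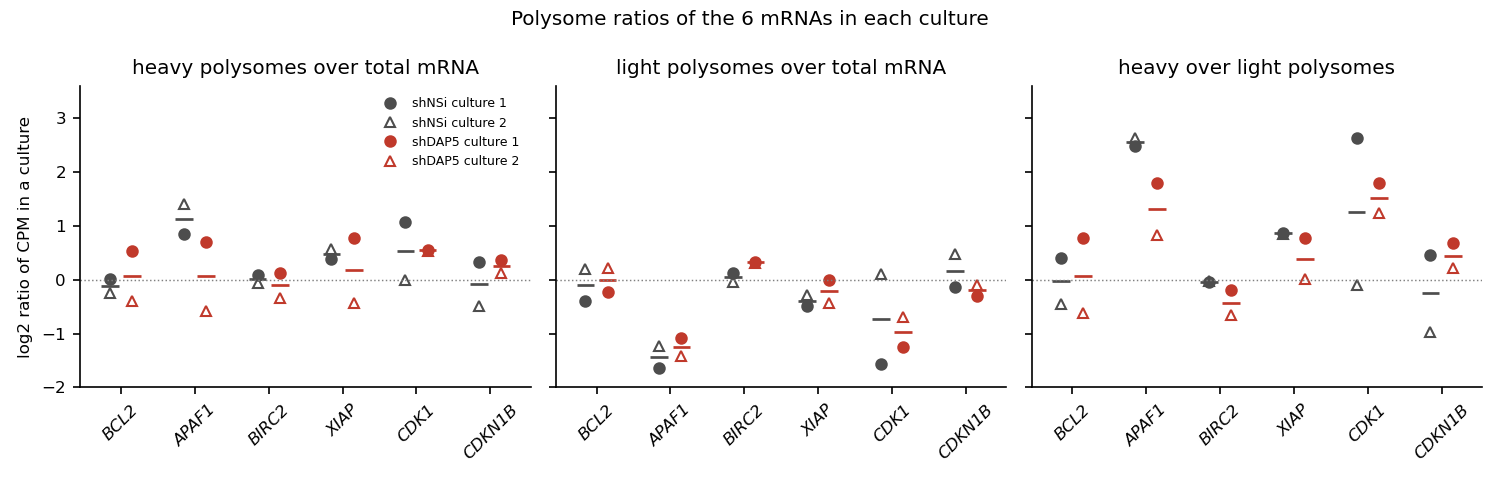
Log2 ratio of CPM between fractions (vertical axis) of each mRNA in each culture, for heavy polysomes over total mRNA, light polysomes over total mRNA and heavy over light polysomes (panels), with bars for the mean of a line's 2 cultures. The APAF1 cultures do not overlap between the lines in heavy over light (shNSi 2.49 and 2.64, shDAP5 1.80 and 0.84), while the CDK1 heavy over light ratios of shNSi are 2.63 and -0.10.

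Within each line, heavy was compared with light polysomes to place each mRNA along the gradient. In shNSi 2 of the 6 mRNAs were called, against 61.6% of 15878 genes, and in shDAP5 also 2 of the 6, against 39.7%. Library size scaling moved the median of all genes by -0.44 in shNSi and -0.20 in shDAP5. APAF1 was higher in heavy polysomes in both lines, by log2 2.52 in shNSi (SE 0.31, adjusted p = 2.33e-06, edgeR) and 1.23 in shDAP5 (SE 0.30, adjusted p = 0.00371), and the shNSi call was made in all of its 14 alternatives. The shDAP5 call was lost without shDAP5 culture 1 (0.78, adjusted p = 0.282, range over 10 alternatives 9.15e-05 to 0.282). XIAP was higher in heavy polysomes of shNSi (0.82, adjusted p = 0.0174), a call lost without shNSi culture 1 (0.81, adjusted p = 0.0776) or culture 2 (0.84, adjusted p = 0.0582) and with library size scaling (0.38, adjusted p = 0.282). It was made in 6 of 14 alternatives, with adjusted p from 0.00796 to 0.413. It was also lost with limma (0.48), offsets for coding length (0.24), the moderate pool in place of heavy (0.48) or light (0.33) and heavy and moderate summed (0.56). CDK1 was higher in heavy polysomes of shDAP5 (1.42, adjusted p = 0.0286), a call made in 8 of 10 alternatives (range 2.24e-06 to 0.178). It was lost without shDAP5 culture 1 (1.17, adjusted p = 0.178) and with limma (1.11, adjusted p = 0.117).

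In shNSi the change of CDK1 was 1.21 (adjusted p = 0.0560), and it passed in 8 of 14 alternatives (range 4.06e-09 to 0.767). Without shNSi culture 1 it was -0.15, and with the moderate pool in place of light -0.27. It passed without shNSi culture 2 (2.597, adjusted p = 4.06e-09), without shDAP5 culture 1 (1.29, adjusted p = 0.0122) and culture 2 (1.20, adjusted p = 0.0185). It passed as well with DESeq2 (1.27), with no filter (1.31), with offsets for coding length (1.58), with the moderate pool in place of heavy (1.48) and with heavy and moderate summed (1.34). CDKN1B, at -0.30 in shNSi (adjusted p = 0.424), passed in 3 of 14 alternatives (range 0.0226 to 0.880), in differing directions. It was lower without shNSi culture 1 (-1.01, adjusted p = 0.0226) and with library size scaling (-0.74, adjusted p = 0.0371) but higher with offsets for coding length (0.78, adjusted p = 0.0229), and without shNSi culture 2 it was 0.43. Within shDAP5 CDKN1B was at 0.35 and passed with those offsets alone (0.71, adjusted p = 0.0430, range over 10 alternatives 0.0430 to 0.859). BIRC2, at -0.09 in shNSi and -0.52 in shDAP5, was lower in heavy polysomes with those offsets in shNSi (-0.89, adjusted p = 0.00456, range over 14 alternatives 0.00456 to 1) and in shDAP5 (-0.91, adjusted p = 0.00593, range over 10 alternatives 0.00593 to 0.771). With limma it was so in shDAP5 (-0.805, adjusted p = 0.0251). The difference between the lines is the heavy over light change given for each gene, and it passed for none of the 6 in edgeR.

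The shNSi moderate pool placed these mRNAs differently. APAF1 was lower there than in heavy polysomes by log2 ratios of -1.43 and -1.85 in the 2 cultures and higher than in light polysomes by 1.06 and 0.80. CDK1 moderate over heavy was -0.57 in culture 1 and 1.12 in culture 2, and BIRC2 was 0.01 and 0.20. XIAP moderate over heavy was -0.46 and -0.20, and over light 0.42 and 0.66. APAF1 and XIAP thus sat between light and heavy in both cultures, CDK1 and BIRC2 in culture 1, and BCL2 and CDKN1B in culture 2. By library size BIRC2 did so in both and XIAP not in culture 2. These ratios were not tested.

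Across genes, the change of heavy translation efficiency followed coding length, with a Spearman coefficient of -0.71 over the 12477 tested genes with a length (81.2% of those tested). On the median, short coding sequences had positive and long ones negative changes, from a median of 0.86 in the shortest of 10 equal-sized length bins to -0.92 in the longest. In the shortest bin 33.4% of genes were called and in the longest 34.5%, with as few as 1.52% in a bin between. The coding sequences of the 6 mRNAs measured 597 nt in CDKN1B, 720 in BCL2, 894 in CDK1, 1494 in XIAP, 1857 in BIRC2 and 3747 in APAF1. In that order their heavy translation efficiency changes were 0.36, 0.20, 0.04, -0.27, -0.09 and -1.03, and APAF1, the longest, was the lowest. Set against the median of its own length bin (-0.92), APAF1 differed by -0.11 and lay between the quartiles of that bin (-1.26 and -0.53). BCL2 lay -0.41, CDK1 -0.38, CDKN1B -0.26 and XIAP -0.08 from the median of their bins, and BIRC2 0.20. BCL2 and CDKN1B lay under the lower quartile of their bin (0.37), CDKN1B only just, and CDK1 under that of its own (0.14), while XIAP and BIRC2 lay between quartiles. With offsets for coding length fitted in each library, 0 of the 6 were called in heavy translation efficiency and the APAF1 change was -0.28. The changes of BCL2 (-0.34), CDK1 (-0.33), CDKN1B (-0.31) and BIRC2 (0.25) then took the other sign. The parts of coding length, leader length and base composition were not tested separately.

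**Figure D4:**
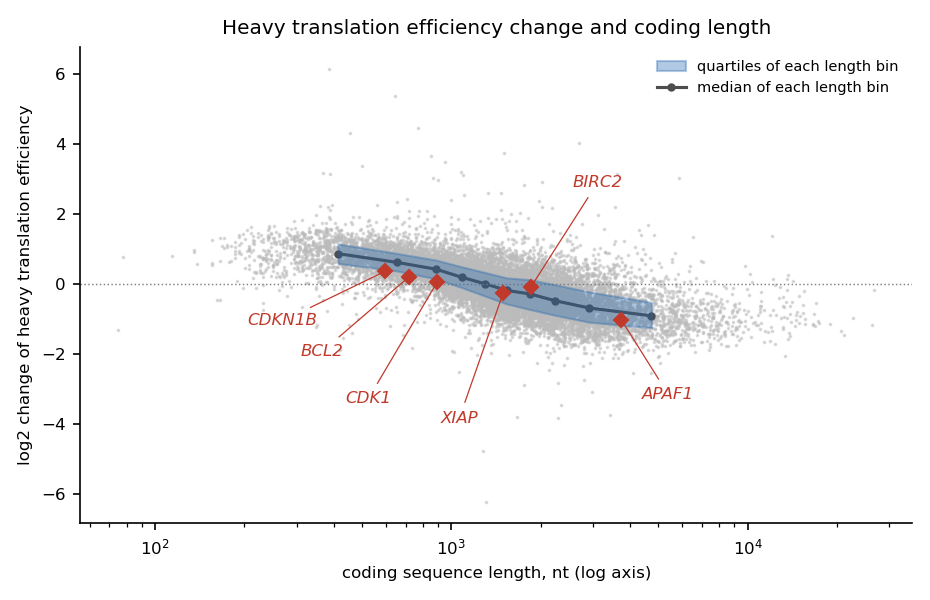
Log2 change of heavy translation efficiency, shDAP5 against shNSi (vertical axis), against coding sequence length in nt (horizontal log axis), with grey points for genes, a line and band for the median and quartiles of each of 10 length bins, and red diamonds for the 6 mRNAs. The median falls from 0.86 to -0.92 with length, and APAF1 at -1.03 lies -0.11 from the median of its bin.

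Around the apoptosis members, the anti-apoptotic BCL2 family had 5 tested members of which edgeR called 0 in heavy translation efficiency (0 at an unadjusted p under 0.05, 0 by DESeq2, 0 by limma and 1 with offsets for coding length), with a median log2 change of 0.20, the value of BCL2 itself, beside 0.09 over all genes, 13.1% of which were called. Of 10 pro-apoptotic effectors and BH3-only genes, 2 rose and 0 fell (20%), with a median of 0.70. There were 5 at an unadjusted p under 0.05, where 4564 of all 15374 genes tested stood. DESeq2 called 3 of the list, and limma or the offsets for coding length 0. The 2 that rose were BAD, which neutralises anti-apoptotic partners (1.096, SE 0.35, adjusted p = 0.0311, edgeR), and BOK, an effector of the BAX type (1.03, SE 0.34, adjusted p = 0.0400). Of 13 apoptosome and caspase genes edgeR called 0 (3 at an unadjusted p under 0.05, APAF1 among them, 2 by DESeq2, 1 by limma and 0 with the offsets), and their median was 0.08. Of 5 tested members of the IAP family edgeR called 0 (0 at an unadjusted p under 0.05 and 0 by DESeq2, limma or with the offsets), and their median of -0.09, the value of BIRC2, was 0.13 on the library size scale. These lists hold BCL2, APAF1, BIRC2 and XIAP as well. Among 10 partners of the IAP proteins, RIPK1, the kinase of the TNF receptor complex, fell (-0.97, SE 0.34, adjusted p = 0.0465) and 0 rose (10%), with a median of 0.19. There were 2 at an unadjusted p under 0.05, 1 by DESeq2 and 0 by limma or with the offsets.

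Around the cell cycle members, 2 of 15 regulators and partners of CDK1 rose and 0 fell (13.3%, beside 13.1% of all genes), with a median of 0.13. DESeq2 called 2, limma 1 and the offsets for coding length 0, and 2 had an unadjusted p under 0.05. Both were small CDK-binding subunits, CKS2 (1.35, SE 0.34, adjusted p = 0.0104, edgeR) and CKS1B (0.98, SE 0.34, adjusted p = 0.0448). Of 19 genes of CDKN1B targets and turnover, 2 rose and 0 fell (10.5%), with a median of 0.17. DESeq2 called 3, limma 2 and the offsets 0, and 7 had an unadjusted p under 0.05, beside 4564 of all 15374 genes tested. The 2 that rose were SKP1, a subunit of the ubiquitin ligase that removes the CDKN1B protein (1.03, SE 0.35, adjusted p = 0.0407, edgeR), and CDK4, the kinase partner of D-type cyclins (1.03, SE 0.36, adjusted p = 0.0480).

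RNA-binding proteins reported on cellular IRES elements gave 0 calls of 12 in edgeR (4 at an unadjusted p under 0.05, 4 by DESeq2, 0 by limma and 1 with offsets for coding length), with a median of -0.27 that was -0.06 on the library size scale. Of 28 tested genes among other mRNAs reported with an IRES, 1 rose and 4 fell (17.9%, beside 13.1% of all genes), with a median of -0.15 that was 0.06 on the library size scale. EIF4G2, the target of the hairpin, is in this list and was not called. At an unadjusted p under 0.05 there were 12 of the list, beside 4564 of all 15374 genes tested. DESeq2 called 7 of the list, limma 0 and the offsets for coding length 1. BAG1, a co-chaperone, rose (1.12, SE 0.34, adjusted p = 0.0277). UTRN, the dystrophin relative utrophin (-1.51, SE 0.47, adjusted p = 0.0432), and LAMB1, a laminin chain (-1.44, SE 0.35, adjusted p = 0.00973), fell. HSPA5, an endoplasmic reticulum chaperone (-1.40, SE 0.37, adjusted p = 0.0133), and EIF4G1, the scaffold of the cap-binding complex (-1.27, SE 0.39, adjusted p = 0.0261), also fell and are named after their values were seen.

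Together these lists named 12 called genes, in a comparison where 13.1% of all genes tested were called. None of the 12 was called with library size scaling, without a term for each culture, with the moderate pool in place of heavy or summed with it, without shNSi culture 2 or without shDAP5 culture 2. With offsets for coding length 1 was called, HSPA5. With the replicate block 2 were called, UTRN and LAMB1, and with the block and those offsets 2 different ones, HSPA5 and BAG1. Without shNSi culture 1 there were 3, with limma 3 and with no filter 8. All 12 were called with DESeq2, with at least 10 counts in every library and without shDAP5 culture 1.

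In heavy polysomes edgeR called 30.9% of 14270 genes, and 5996 genes had an unadjusted p under 0.05. There edgeR called more genes in most of these lists. Of the 10 pro-apoptotic genes 5 rose and 0 fell (50%), with 7 at an unadjusted p under 0.05, 3 by DESeq2, 5 by limma and 0 with offsets for coding length. Among the 28 other mRNAs reported with an IRES 4 rose and 8 fell (42.9%), with 14 unadjusted, 11 by DESeq2, 11 by limma and 5 with the offsets. This list includes EIF4G2, the target of the hairpin. Of the 12 RNA-binding proteins 0 rose and 3 fell (25%), with 4 unadjusted, 5 by DESeq2, 1 by limma and 1 with the offsets. For the apoptosome and caspases 2 rose and 2 fell of 13, in the IAP family 0 and 1 of 5, and among IAP partners 2 and 1 of 10. The regulators of CDK1 gave 2 and 0 of 15 and CDKN1B targets and turnover 4 and 1 of 19, and with the offsets the calls of these lists were 1, 0, 0, 0 and 2. In the anti-apoptotic BCL2 family edgeR called 0 of 4, with 2 unadjusted, 2 by DESeq2, 1 by limma and 1 with the offsets.

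**Figure D5:**
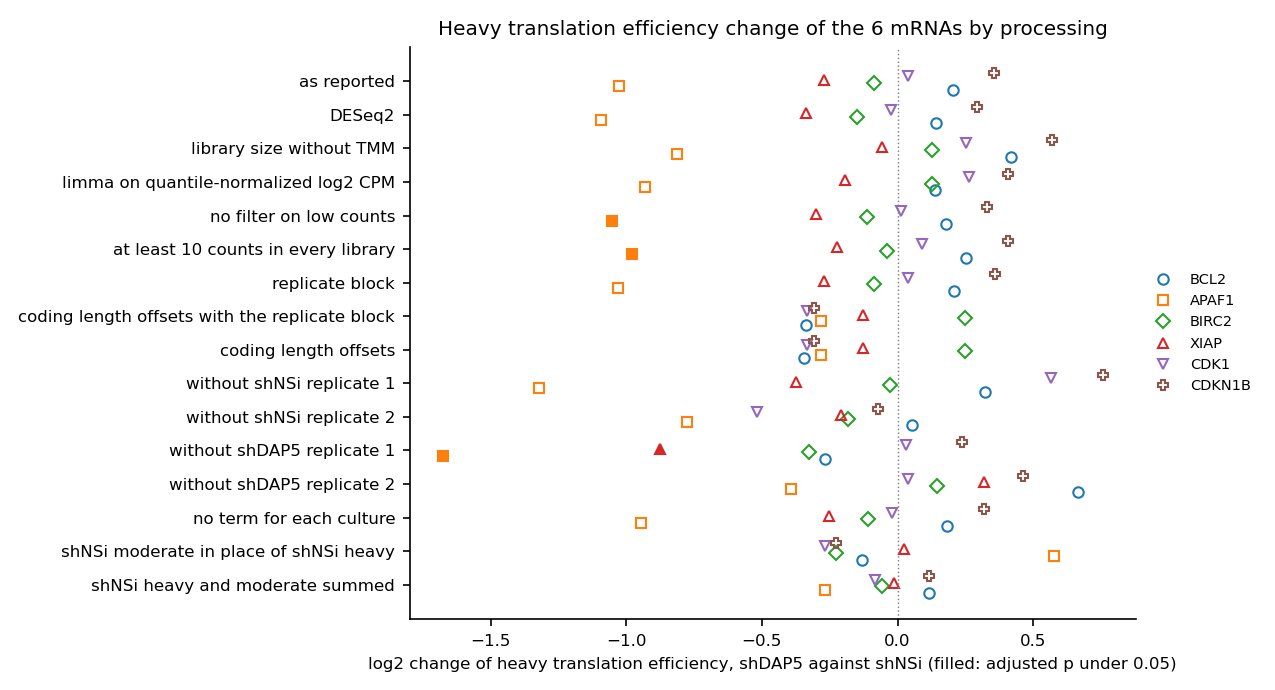
Log2 change of heavy translation efficiency, shDAP5 against shNSi (horizontal axis), of the 6 mRNAs (colours and symbols) under each processing (vertical axis), with filled symbols where the adjusted p is under 0.05. APAF1 ranges from -1.68 without shDAP5 culture 1 to 0.58 with the shNSi moderate pool in place of the heavy one, and BCL2 from -0.34 to 0.66.

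Levels were compared by the Pearson correlation of log2 CPM over the 14 libraries, which share cultures and lines, among 9386 genes with a mean of at least 10 CPM. APAF1 was most like WNK1 (r = 0.986) and PJA2 (0.986), XIAP like CD2AP (0.961) and PUM2 (0.960), and CDK1 like H2AFY (0.983) and EIF3M (0.981). BCL2 was most like EAF1 (0.910) and TMED7 (0.906), BIRC2 like SLC7A6 (0.931) and ZNRF3 (0.883), and CDKN1B like ARL14EP (0.937) and C9orf40 (0.925). Among the 6 themselves the highest coefficient was 0.85 between APAF1 and XIAP, followed by 0.57 between BCL2 and CDKN1B, and the lowest was -0.19 between APAF1 and BIRC2. None of these genes was among the 2 most alike of another member.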

How the data were processed

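The deposited table holds featureCounts read counts per gene symbol for the 14 libraries, from reads the authors aligned with STAR 2.6.0a on hg19. The strandedness of the counting is not stated in the labels. All columns were matched to samples by their codes, and 0 were left unmapped. Counts were filtered with filterByExpr, scaled by TMM and tested with edgeR 4.0.16 (robust quasi-likelihood, Benjamini-Hochberg over all genes tested, threshold 0.05) in R 4.3.3. Translation efficiency and the heavy over light ratio were interactions of fraction and hairpin with a term for each culture. The smallest p of a two-sided exact test of 2 cultures against 2 is 0.333, so only tests pooling the spread over genes were used. Ratios of a culture used a prior count of 0.5. Alternatives were DESeq2 1.42.0, library size scaling, limma 3.58.1 on quantile-normalised log2 (CPM + 1), no filter or at least 10 counts, a replicate block, 1 fit of all libraries, no culture term, other uses of the moderate pool, offsets for coding length (splines of 4 degrees of freedom), and leaving out each culture. A block with crossed numbers and ratios by library size were added after seeing the data. Tests were checked on simulated data. Coding lengths and leaders came from GENCODE v29 (GRCh38) by symbol. Figures used matplotlib 3.10.9 and pandas 2.3.3. Named genes were EIF4G2, the 6 mRNAs, up to 2 called genes per list and direction with the largest heavy translation efficiency change, the 2 genes most alike in level, the cell markers and, after their values were seen, HSPA5 and EIF4G1. The members and lists were chosen with earlier results of these data known. The 27 symbols that read as dates were kept as they stand.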

Additional observations from a re-analysis of the deposited data

Results flagged for a closer look

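Heavy translation efficiency tests whether the step from total mRNA to heavy polysomes differs between shDAP5 and shNSi. In it 13.1% of 15374 genes were called (edgeR, adjusted p under 0.05). Of the lists around the 6 mRNAs, with sizes given above, 12 genes differed between the lines by that test. The ratio was higher in shDAP5 for 7 of them, by log2 1.35 in CKS2, 1.12 in BAG1, 1.096 in BAD, 1.03 in BOK, 1.03 in SKP1, 1.03 in CDK4 and 0.98 in CKS1B. It was lower in shDAP5 by log2 -1.51 in UTRN, -1.44 in LAMB1, -1.40 in HSPA5, -1.27 in EIF4G1 and -0.97 in RIPK1. Coding sequences of those that were higher measured 240 nt in CKS2 and CKS1B, 492 in SKP1, 507 in BAD, 639 in BOK, 912 in CDK4 and 1038 in BAG1. Among those that were lower, RIPK1 had 2016 nt, LAMB1 5361 and UTRN 10302. By coding length, edgeR called 33.4% of genes in the shortest of 10 bins and 34.5% in the longest. 0 of the 12 were called with library size scaling, without a term for each culture, with the shNSi moderate pool in place of heavy or summed with it, without shNSi culture 2 or without shDAP5 culture 2, and 1, HSPA5, with offsets for coding length. By library size the adjusted p ran from 0.0628 to 0.150 with changes of the same sign (CKS2 1.57, HSPA5 -1.19), and without the culture term from 0.116 to 0.176 (CKS2 1.36, HSPA5 -1.53). With the moderate pool in place of heavy 8 of the 12 took the other sign (HSPA5 0.77), and summed with it all kept theirs with smaller changes (HSPA5 -0.50). With offsets for coding length all kept their sign with smaller changes (CKS1B 0.12, SKP1 0.28, CKS2 0.49, EIF4G1 -0.44, HSPA5 -1.02). Without shDAP5 culture 2 the changes went down to 0.60 in BAD and -0.69 in UTRN, and without shNSi culture 2 to 0.75 in SKP1 and -0.76 in RIPK1. None of the 6 mRNAs was among them, APAF1 having an adjusted p of 0.0657.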

How the results depend on the processing

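Over their alternatives, log2 changes of the 6 mRNAs kept direction and side of the threshold in 523 cases, kept direction but lost a call in 17 or gained one in 30, and took the other sign in 114, whether or not a call changed as well. For the other named genes these counts were 99, 121, 8 and 10. Below, passed means an adjusted p under 0.05, and turned means a log2 change of the other sign than reported. Except where fewer genes or cultures were in the fit by construction, the cause was not tested. Levels by library size alone differed from the TMM levels by more than the spread between replicates in 10 groups of libraries and by less in 32. Of the 18 ratios of the 6 mRNAs by culture, 5 did not overlap between the lines with TMM and 2 with library size alone, an alternative chosen after seeing the data. Separation of 2 cultures from 2 has a two-sided p of 0.333 in an exact test, so these counts alone show no change.

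With DESeq2, 273 genes passed in total mRNA, 105 in light polysomes and 1965 in the heavy over light ratio, and of the 6 mRNAs 1 passed in the heavy over light ratio. CDK1 turned to -0.024 in heavy translation efficiency. Scaled by library size without TMM, 18 genes passed in total mRNA, 0 in heavy translation efficiency and 1637 in the heavy over light ratio, and of the 6 mRNAs 0 passed in heavy polysomes. XIAP turned to 0.021 in total mRNA. BCL2 turned to 0.25, XIAP to 0.0028 and CDK1 to 0.12 in heavy polysomes. BCL2 turned to 0.038 and BIRC2 to 0.0896 in light polysomes. BIRC2 turned to 0.13 in heavy translation efficiency. With limma on quantile-normalised log2(CPM + 1), 5 genes passed in total mRNA, 408 in heavy translation efficiency and 0 in the heavy over light ratio, and of the 6 mRNAs 1 passed in heavy against light polysomes of shNSi. CDK1 turned to 0.25 in heavy polysomes. BIRC2 turned to 0.12 in light polysomes. BIRC2 turned to 0.13 in heavy translation efficiency. BCL2 turned to 0.033 in heavy against light polysomes of shDAP5. With no filter on low counts, 577 genes passed in total mRNA, 244 in light polysomes and 3 in light translation efficiency, and of the 6 mRNAs 1 passed in heavy translation efficiency and 1 in the heavy over light ratio. BCL2 turned to 0.029 and BIRC2 to 0.00698 in heavy against light polysomes of shNSi. BCL2 turned to 0.029 in heavy against light polysomes of shDAP5. With at least 10 counts in every library, of the 6 mRNAs, 1 passed in heavy translation efficiency. BCL2 turned to 0.033 in heavy polysomes. BIRC2 turned to 0.0056 in light polysomes. With all 14 libraries in 1 fit, 3 genes passed in total mRNA and 1 in light polysomes. BIRC2 turned to 0.00097 in light polysomes. Without a term for each culture, 0 genes passed in heavy translation efficiency and 0 in the heavy over light ratio. CDK1 turned to -0.022 in heavy translation efficiency. BCL2 turned to -0.024 in the heavy over light ratio.

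With offsets for coding length, 10 genes passed in total mRNA, 1409 in heavy polysomes, 5 in light polysomes, 481 in heavy translation efficiency, 116 in the heavy over light ratio and 6488 in heavy against light polysomes of shNSi, and of the 6 mRNAs 0 passed in heavy polysomes, 4 in heavy against light polysomes of shNSi and 4 in heavy against light polysomes of shDAP5. XIAP turned to 0.0103 in total mRNA. CDKN1B turned to -0.19 in heavy polysomes. BCL2 turned to 0.0703 and BIRC2 to 0.013 in light polysomes. BCL2 turned to -0.34, BIRC2 to 0.25, CDK1 to -0.33 and CDKN1B to -0.31 in heavy translation efficiency. BCL2 turned to -0.59, CDK1 to -0.25 and CDKN1B to -0.074 in the heavy over light ratio. BCL2 turned to 0.71 and CDKN1B to 0.78 in heavy against light polysomes of shNSi. BCL2 turned to 0.12 and XIAP to -0.12 in heavy against light polysomes of shDAP5. Offsets could be fitted only for genes with a coding length, so fewer genes were tested.

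The column codes mark each culture with an R code of its own, none of them shared between the lines. What these codes mark was not analysed and cannot be told apart from the line. No label ties a shNSi culture to the shDAP5 culture of the same number. Differences between equal numbers correlated across genes with r of -0.10 in total mRNA, 0.05 in heavy and 0.05 in light polysomes, -0.17 in heavy and -0.03 in light translation efficiency and -0.14 in the heavy over light ratio, so the numbers were not taken as pairs. With the replicate block, 365 genes passed in total mRNA, 130 in light polysomes, 688 in heavy translation efficiency and 1 in light translation efficiency. BCL2 turned to 0.0021 in heavy polysomes. With those offsets and the replicate block together, 2759 genes passed in heavy polysomes, 219 in light polysomes, 519 in heavy translation efficiency, 1 in light translation efficiency and 236 in the heavy over light ratio, and of the 6 mRNAs 0 passed in heavy polysomes. APAF1 turned to 0.0076 and XIAP to 0.0081 in total mRNA. CDKN1B turned to -0.17 in heavy polysomes. BCL2 turned to -0.34, BIRC2 to 0.25, CDK1 to -0.33 and CDKN1B to -0.31 in heavy translation efficiency. BCL2 turned to -0.58, CDK1 to -0.25 and CDKN1B to -0.073 in the heavy over light ratio. With the numbers crossed between the lines, an alternative chosen after seeing the data, 4133 genes and 1 of the 6 mRNAs passed in heavy translation efficiency, and 2238 genes and 1 of the 6 in the heavy over light ratio.

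With the shNSi moderate pool in place of the heavy one, 50 genes passed in heavy polysomes, 0 in heavy translation efficiency, 0 in the heavy over light ratio and 5306 in heavy against light polysomes of shNSi, and of the 6 mRNAs 0 passed in heavy polysomes. APAF1 turned to 0.60, XIAP to 0.046 and CDKN1B to -0.037 in heavy polysomes. BCL2 turned to -0.13, APAF1 to 0.58, XIAP to 0.023, CDK1 to -0.27, CDKN1B to -0.23, EIF4G2 to -0.44, BOK to -0.041, RIPK1 to 0.73, CDK4 to -0.20, SKP1 to -0.087, HSPA5 to 0.77, EIF4G1 to 1.16, UTRN to 0.57 and LAMB1 to 0.31 in heavy translation efficiency. BCL2 turned to -0.23, APAF1 to 0.39 and CDK1 to -0.031 in the heavy over light ratio. BCL2 turned to 0.23, BIRC2 to 0.012 and CDKN1B to 0.24 in heavy against light polysomes of shNSi. With the shNSi heavy and moderate pools summed as heavy, 421 genes passed in heavy polysomes, 0 in heavy translation efficiency and 0 in the heavy over light ratio, and of the 6 mRNAs 0 passed in heavy polysomes. CDK1 turned to -0.084 and EIF4G2 to -0.057 in heavy translation efficiency. BCL2 turned to -0.044 in the heavy over light ratio. BCL2 turned to 0.024 in heavy against light polysomes of shNSi. With the shNSi moderate pool in place of the light one, 3940 genes passed in light polysomes, 4367 in light translation efficiency, 3762 in the heavy over light ratio and 6084 in heavy against light polysomes of shNSi, and of the 6 mRNAs 1 passed in light polysomes, 1 in light translation efficiency, 1 in the heavy over light ratio and 1 in heavy against light polysomes of shNSi. APAF1 turned to -0.73 and XIAP to -0.32 in light polysomes. BCL2 turned to -0.099, APAF1 to -0.65 and XIAP to -0.27 in light translation efficiency. CDK1 turned to -0.27 in heavy against light polysomes of shNSi. With the shNSi light and moderate pools summed as light, 114 genes passed in light polysomes, 454 in light translation efficiency and 2474 in the heavy over light ratio. APAF1 turned to -0.36 and XIAP to -0.11 in light polysomes. APAF1 turned to -0.25 and XIAP to -0.023 in light translation efficiency. BIRC2 turned to 0.0025 in heavy against light polysomes of shNSi.

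Leaving out a culture leaves 1 culture in an arm, which is assumed to vary like the other line's. Genes past the threshold ranged from 0 (without shDAP5 culture 1) to 386 (without shNSi culture 1) in total mRNA, from 2 (without shDAP5 culture 2) to 3559 (without shNSi culture 1) in heavy polysomes, from 2 (without shDAP5 culture 1) to 4678 (without shNSi culture 1) in light polysomes and from 4 (without shNSi culture 2) to 4515 (without shDAP5 culture 1) in heavy translation efficiency. They ranged from 0 (without shDAP5 culture 1) to 2030 (without shNSi culture 1) in light translation efficiency, from 2 (without shDAP5 culture 2) to 2929 (without shNSi culture 1) in the heavy over light ratio and from 1767 (without shDAP5 culture 2) to 7661 (without shNSi culture 2) in heavy against light polysomes of shDAP5. Of the 6 mRNAs, between 0 and 1 passed in heavy polysomes, 0 and 1 passed in light polysomes, 0 and 2 passed in heavy translation efficiency, 0 and 2 passed in light translation efficiency, 0 and 3 passed in the heavy over light ratio and 0 and 2 passed in heavy against light polysomes of shDAP5. BCL2 ranged from -0.50 to 0.038, APAF1 from -0.33 to 0.27, XIAP from -0.33 to 0.23 and CDK1 from -0.30 to 0.083 in total mRNA. BCL2 ranged from -0.29 to 0.17, XIAP from -0.68 to 0.016 and CDK1 from -0.52 to 0.33 in heavy polysomes. BCL2 ranged from -0.65 to 0.33, BIRC2 from -0.28 to 0.21, XIAP from -0.019 to 0.29, CDK1 from -1.20 to 0.65 and CDKN1B from -0.52 to 0.16 in light polysomes. BCL2 ranged from -0.27 to 0.66, BIRC2 from -0.33 to 0.14, XIAP from -0.88 to 0.32, CDK1 from -0.52 to 0.56 and CDKN1B from -0.074 to 0.76 in heavy translation efficiency. BCL2 ranged from -0.14 to 0.37, XIAP from -0.053 to 0.41 and CDK1 from -1.02 to 0.56 in light translation efficiency. BCL2 ranged from -0.71 to 0.77, CDK1 from -1.15 to 1.59 and CDKN1B from -0.053 to 1.38 in the heavy over light ratio. BCL2 ranged from -0.49 to 0.37, CDK1 from -0.15 to 2.597 and CDKN1B from -1.01 to 0.43 in heavy against light polysomes of shNSi. BCL2 ranged from -0.69 to 0.69 and XIAP from -0.059 to 0.69 in heavy against light polysomes of shDAP5.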
